A study of Mus musculus with 32 samples.

Results

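The genes described here encode the contractile apparatus of striated muscle and the proteins that fuel and trigger it. They are 36 sarcomere and skeletal muscle genes, chosen by name and found as rows of a count table of 50686 genes. All 36 were found, and all 36 were among the 15505 genes that passed the filter on low counts. The table came from interscapular brown adipose tissue (iBAT), the thermogenic fat pad between the shoulder blades. It held 32 libraries, 1 per mouse, from non-fasted, chow-fed, 10-week-old male C57BL/6J mice on a 12 h light and 12 h dark schedule. Groups of 4 mice were killed at Zeitgeber time (ZT) 0, 3, 6, 9, 12, 15, 18 and 21, where ZT0 is lights on. All mice were housed at room temperature, which the study describes as mild cold because it lies below the thermoneutral zone. No mouse carried a further treatment or a genetic change. The study asked which transcripts of brown fat oscillate over the day. Libraries held 16300770 to 18254659 counts. Sequencing lane 2 carried ZT0 to ZT6, lane 3 carried ZT9 to ZT15, and lane 4 carried ZT18 plus ZT21, so that lane and time of day cannot be told apart between lanes. The tissue label held: Ucp1, the uncoupling protein of brown fat, read 955 to 4319 CPM (counts scaled to a common library size of 1000000), and Adipoq, the adipocyte hormone adiponectin, 628 to 989 CPM.

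A sarcomere is built from thick filaments of myosin that slide along thin filaments of actin. Thin filaments carry the troponin and tropomyosin switch and are anchored in Z-discs, and titin spans from the Z-disc to the middle of the sarcomere. Calcium released from the sarcoplasmic reticulum starts each contraction. Fast and slow muscle fibres use different forms of many of these proteins. Brown adipocytes have no sarcomeres, but brown fat and skeletal muscle share a developmental origin and lie side by side in the back.

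The summed level of the 36 genes differed widely between libraries. They took 0.0163% of all counts in ZT0 replicate 1 (95% Wilson interval 0.0157% to 0.0169%) and 1.37% in ZT15 replicate 1 (1.36% to 1.37%), intervals that cover counting error only. This came to 176 and 12530.2 CPM, and ZT3 replicate 2 followed at 12519 CPM. To place each library, 20 other skeletal muscle genes that are not among the 36 served as a reference. Of these, Txlnb read 5.39 CPM or more in every library, so the summed CPM of the other 19 was used to describe the libraries. That sum ran from 1.17 CPM in ZT6 replicate 4 to 780 CPM in ZT15 replicate 1. It was below 5 CPM in 12 libraries (a limit chosen after the values were seen), and the next library, ZT3 replicate 1, had 11.2 CPM. Every time point held at least 1 library on each side of that gap except ZT15, whose 4 libraries had 66.8, 130, 436 and 780 CPM. In bulk tissue, fewer cells of a type and less RNA per cell cannot be told apart. The reference muscle index, the mean log2 CPM of the 20 genes, did not differ detectably between time points (permutation test, two-sided, 32 libraries, p = 0.568). Within lanes the same test gave p = 0.478 for the 12 libraries of lane 2, p = 0.318 for the 12 of lane 3 and p = 0.685 for the 8 of lane 4 (permutation tests), and between lanes p = 0.326.

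**Figure D1:**
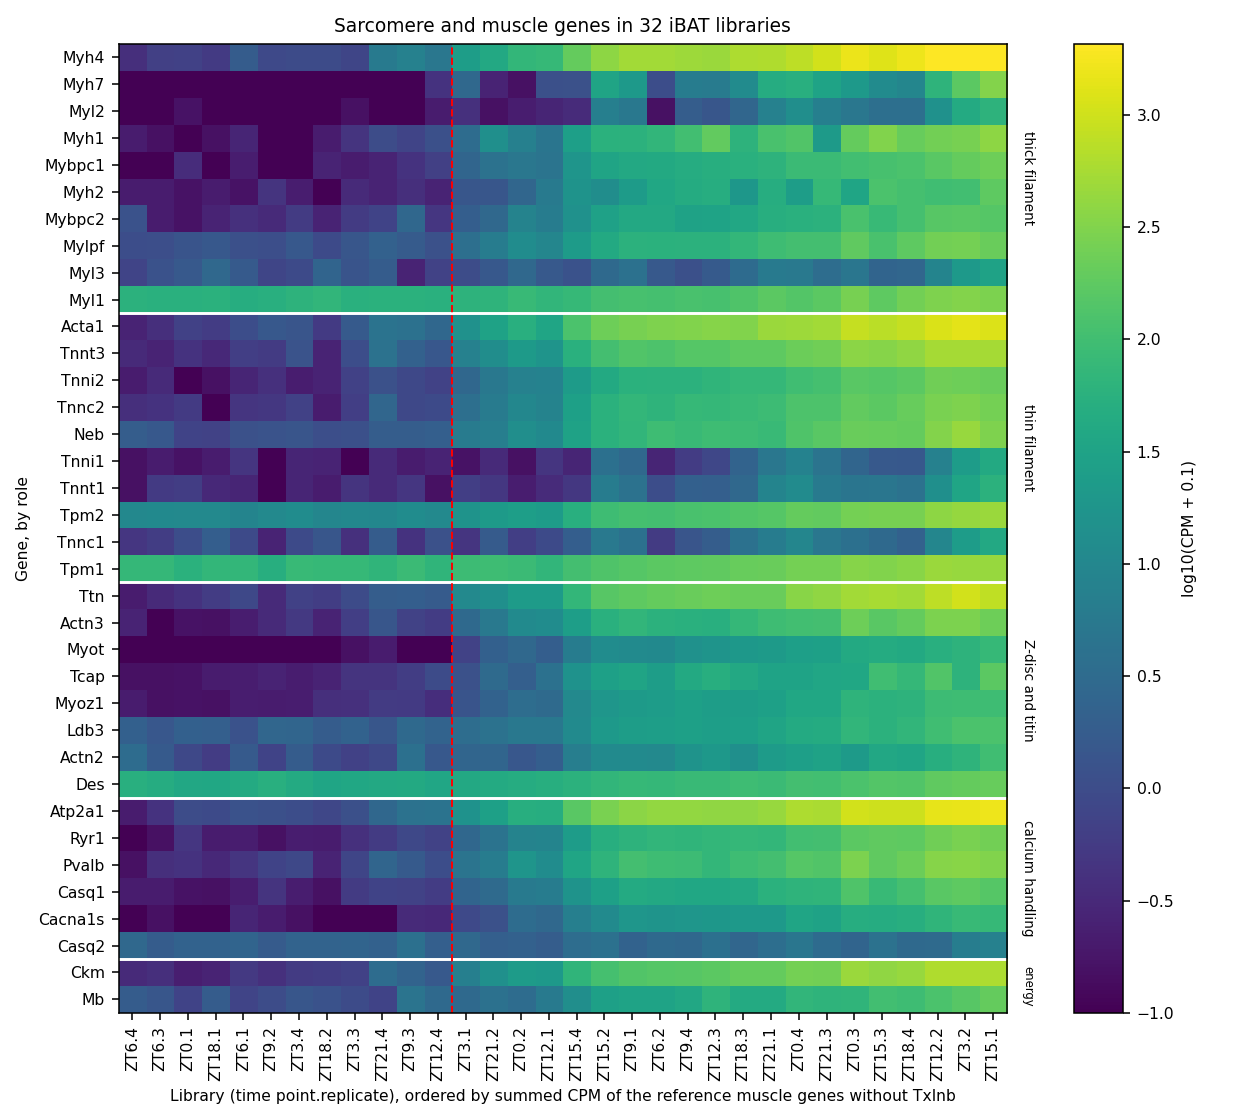
Colour shows log10(CPM + 0.1) of each of the 36 genes (rows, by role in the muscle fibre) in each of the 32 iBAT libraries (columns, ordered by the summed CPM of the reference muscle genes without Txlnb). The dashed line marks the 12 libraries below 5 CPM of that sum: most rows go dark there, while Myl1, Tpm1 and Des change less. Casq2 is low throughout (1.62 to 7.83 CPM), and Tpm2 runs from 469 down to 8.71 CPM.

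All 36 genes rose with the index (edgeR quasi-likelihood test beside time point, Benjamini-Hochberg adjusted p below 0.05), where 3.23% of the 15485 genes tested outside the reference list, the 36 included, rose. The slope, the log2 change of a gene per unit of the index, had a median of 1.25 over the 36 genes and of -0.0021 over all genes tested outside the reference list. The reference genes themselves had a median of 1.19. The index adds a prior count of 2 to each gene, which compresses it at the low end, so a slope above 1 is not by itself a steeper change than that of the reference. Slopes ran from 1.48 ± 0.076 (SE, n = 32) for Myh4 to 0.13 ± 0.028 for Casq2. Of the 36, 27 had a slope of 1 or more, and the other 9 were Ldb3, Actn2, Tpm2, Tnnc1, Myl3, Tpm1, Myl1, Des and Casq2. The call of Casq2 was lost without ZT3 replicate 2 (edgeR adjusted p = 0.0593) and within each lane, whereas the other 35 were called whichever library was left out. Within lane 4, Myl3 and Tnnc1 were not called either (edgeR adjusted p = 0.357 and 0.0673).

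**Figure D2:**
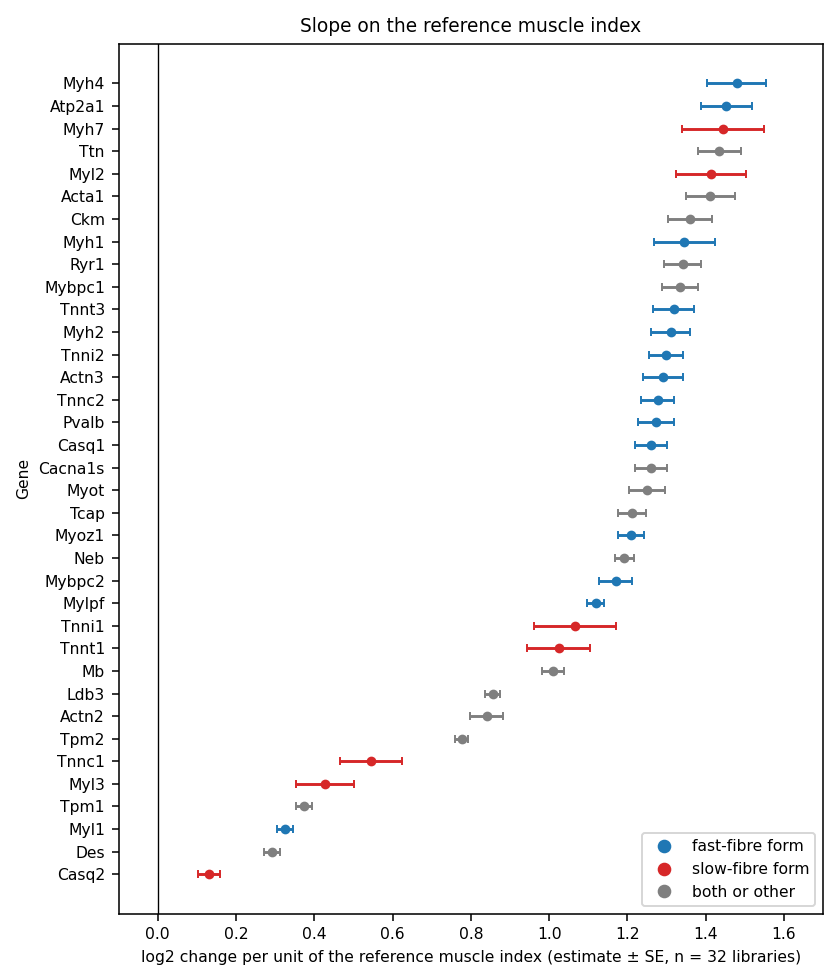
Points give the log2 change of each gene per unit of the reference muscle index, with the standard error as bars (32 libraries), coloured by the fibre type whose form the gene encodes. Slopes fall slowly from 1.48 for Myh4 to 1.01 for Mb, and then drop through Ldb3 (0.86) to Casq2 (0.13).

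Among the thick filament genes, Myh4, the myosin heavy chain of the fastest (type IIB) fibres, had the highest median and the highest maximum, although Myl1, described with a second set of genes, was above it in the libraries with few muscle reads. Myh4 read 0.279 CPM (5 counts) in the lowest library, 137 CPM in the median library and 2075 CPM in the highest, ZT12 replicate 2. In the 12 libraries with few muscle reads it had 0.279 to 7.64 CPM. Myh1 and Myh2, the heavy chains of type IIX and IIA fibres, read at most 379 and 177 CPM and at most 1.04 and 0.347 CPM in those 12 libraries. Mybpc1 and Mybpc2, myosin-binding proteins C, reached 234 and 166 CPM and stayed at or below 0.548 and 2.66 CPM there. Mylpf, the fast regulatory light chain, ran from 0.828 to 260 CPM. The gene models of Myh1, Myh2 and Myh4 share sequence: 90.76%, 92.2% and 96.15% of their 100-base stretches occurred in no other gene, so a small share of reads could be split between them.

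Acta1, skeletal muscle actin, reached the highest CPM of the thin filament genes in any library, with 0.167 CPM (3 counts) in ZT6 replicate 4, 89.1 CPM in the median library and 1360.4 CPM in ZT3 replicate 2. Tnnt3, Tnni2 and Tnnc2, the 3 subunits of fast troponin, reached 552, 242 and 298 CPM and read no more than 4.20, 1.09 and 2.59 CPM in the 12 libraries with few muscle reads. Their slopes were 1.32, 1.3 and 1.28. Of the exonic bases of Tnnc2, 74.0% overlap Ube2c on the other strand, and whether the counting used strand is not given in the sources used here. For the other 35 genes that overlap was 0% to 21.9%, highest for Atp2a1, Cacna1s (19.98%) and Ckm (15.48%). Neb, nebulin, the ruler of the thin filament, ran from 0.606 to 440 CPM.

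Titin and most Z-disc genes had slopes above 1. Ttn, the giant spring of the sarcomere, ran from 0.111 to 1067 CPM, at a slope of 1.44 ± 0.054. Actn3, the alpha-actinin of fast fibres, read 0 to 288 CPM, Myoz1, which binds calcineurin and alpha-actinin at the Z-disc, 0.0551 to 94.2 CPM, and Tcap, the cap of titin, 0.0557 to 171 CPM. Myot, myotilin, had no count in 10 libraries and at most 0.115 CPM in the 12 libraries with few muscle reads, against 79.0 CPM in ZT15 replicate 1.

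Of the calcium handling genes, Atp2a1, the calcium pump of fast fibres, ran from 0.111 CPM (2 counts) to 1598 CPM, with 21.9% of its exonic bases overlapping Rabep2 on the other strand. Ryr1, the calcium release channel, and Cacna1s, its voltage sensor, reached 279 and 81.3 CPM and had no count in 1 and 6 libraries. Casq1, the calcium buffer of fast fibres, reached 177 CPM, and Pvalb, the soluble calcium buffer parvalbumin, 356 CPM. Ckm, muscle creatine kinase, which regenerates ATP, ran from 0.128 to 627 CPM, and Mb, the oxygen store myoglobin, from 0.632 to 200 CPM. Per kilobase of exon, the highest level of any of the 36 genes was that of Acta1 (886 CPM per kb), followed by Atp2a1 (460), Tnnc2 (373), Tnnt3 (349), Myh4 (345) and Pvalb (342 CPM per kb).

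The stretches of 250 bases before the annotated starts of Myh4 and Acta1 are shown as examples of genes that fell with the reference to a few counts. Capitals mark matches to the MEF2 motif and to the CArG box, the binding motifs of MEF2 and serum response factor, searched on both strands (each reads the same on either strand). The sequences are from RefSeq, build GRCm38.p6. That of Myh4 is chr11:67237562-67237811 on the plus strand, with a MEF2 match at -182 to -173 and a CArG match at -104 to -95, counted back from the start. That of Acta1 is chr8:123894776-123895025 on the minus strand, with a CArG match at -73 to -64.
Myh4: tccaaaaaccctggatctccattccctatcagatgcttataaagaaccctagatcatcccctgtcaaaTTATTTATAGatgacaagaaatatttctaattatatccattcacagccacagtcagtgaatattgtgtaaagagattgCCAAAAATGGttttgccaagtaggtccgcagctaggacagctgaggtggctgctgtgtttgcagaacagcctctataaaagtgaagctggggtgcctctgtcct
Acta1: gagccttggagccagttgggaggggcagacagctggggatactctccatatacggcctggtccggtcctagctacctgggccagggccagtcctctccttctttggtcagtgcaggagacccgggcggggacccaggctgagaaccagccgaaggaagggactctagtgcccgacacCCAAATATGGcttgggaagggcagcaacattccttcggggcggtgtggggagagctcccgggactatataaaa

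Of the 36 genes, 29 had such a promoter entry. The MEF2 motif was in 5 of the 29 (Myh1, Myh4, Pvalb, Casq2 and Ttn) and in 3.01% of 27025 promoters of the same length. The CArG box was in 4 of the 29 (Acta1, Myh4, Myl3 and Ldb3) and in 1.40% of all promoters. The E-box CANNTG, the motif of myogenic factors, was in 24 of the 29 and in 66.0% of all promoters. A match describes letters in the window and is not a measured binding site.

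A second set of genes was read in every library. At least 1 CPM in all 32 libraries was reached by 6 of the 36 genes, Myl1, Tpm1, Tpm2, Casq2, Ldb3 and Des, where 77.0% of all tested genes reached it. Myl1, the essential light chain of fast myosin, read 49.7 CPM (833 counts) in its lowest library, 78.7 CPM in the median and 325 CPM in the highest, and 49.7 to 70.6 CPM in the 12 libraries with few muscle reads. Its fast partner Mylpf read 0.828 to 2.07 CPM in the same 12 libraries. Tpm1, an alpha-tropomyosin gene with many isoforms outside muscle, read 50.7 to 88.5 CPM in them and 467 CPM in ZT12 replicate 2. Des, desmin, the intermediate filament that links Z-discs and is also made in smooth muscle, read 34.8 to 52.4 CPM in them and 209 CPM in ZT15 replicate 1. Tpm2, beta-tropomyosin, read 8.71 to 12.5 CPM in them and 469 CPM at most. Casq2, the calsequestrin of heart and slow fibres, read 1.62 to 3.88 CPM in them and 7.83 CPM at most. Between their lowest and highest library Casq2, Des, Myl1 and Tpm1 differed 4.83-fold, 6.00-fold, 6.54-fold and 9.20-fold, whereas Myh4 differed 7451-fold.

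To express this as 1 value per gene, the counts were fitted as a constant plus a slope times the summed reference CPM (negative binomial, 32 libraries). The constant is the CPM extrapolated to no reference reads. With the whole reference list its 95% profile interval lay above 0 for 7 of the 36 genes: Myl1 at 53.7 CPM (49.9 to 57.8), Tpm1 at 65.2 (60.9 to 69.8), Des at 39.4 (37.4 to 41.4), Tpm2 at 3.54 (2.47 to 4.68), Casq2 at 2.21 (1.93 to 2.52), Myl3 at 1.10 (0.762 to 1.59) and Tnnc1 at 0.619 CPM (0.343 to 1.03). With least squares on CPM the intervals of Myl3 (-1.95 to 1.57 CPM) and Tnnc1 (-3.07 to 1.45 CPM) included 0. Without Xirp2 in the reference list the constant of Tpm2 was 2.19 CPM, below its interval with the whole list. With the whole list the constant was 73.8% of the mean CPM for Casq2, 49.8% for Des, 44.8% for Myl1, 38.2% for Tpm1, 28.9% for Myl3, 14.6% for Tnnc1 and 3.15% for Tpm2. Because Txlnb is never near 0, the fit with the whole list extrapolates below the lowest library. Without Txlnb, an alternative chosen after seeing the data, the interval lay above 0 for 14 genes. Tpm2 then had 9.47 CPM (8.92 to 10.0), and the 7 added genes were Ldb3 at 1.66 CPM (1.47 to 1.86), Actn2 at 1.22 (0.916 to 1.62), Mb at 0.932 (0.664 to 1.26), Mylpf at 0.5 (0.323 to 0.699), Neb at 0.316 (0.149 to 0.506), Tnnt1 at 0.166 (0.0833 to 0.303) and Tnni1 at 0.0849 CPM (0.0314 to 0.183). Per kilobase of exon these constants were 27.7 CPM per kb for Myl1, 11.1 for Des, 11.1 for Tpm1, 3.26 for Tpm2 and 0.829 or less for the other 32. For the remaining 22 genes, Acta1, Myh4 and Ttn among them, the interval included 0, with upper bounds of 0.0106 CPM (Myot) to 0.551 CPM (Myh4). With the whole reference list the upper bounds of the same 22 genes ran from 0.0805 CPM (Myl2) to 6.7 CPM (Myh4), with 0.331 CPM for Myot, 3.62 for Acta1 and 4.45 for Atp2a1. The reference itself kept some reads at the low end: Tmod4, 1 of the 19 genes, read 0.331 to 1.39 CPM in the 12 libraries, so the constants can be understated.

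**Figure D3:**
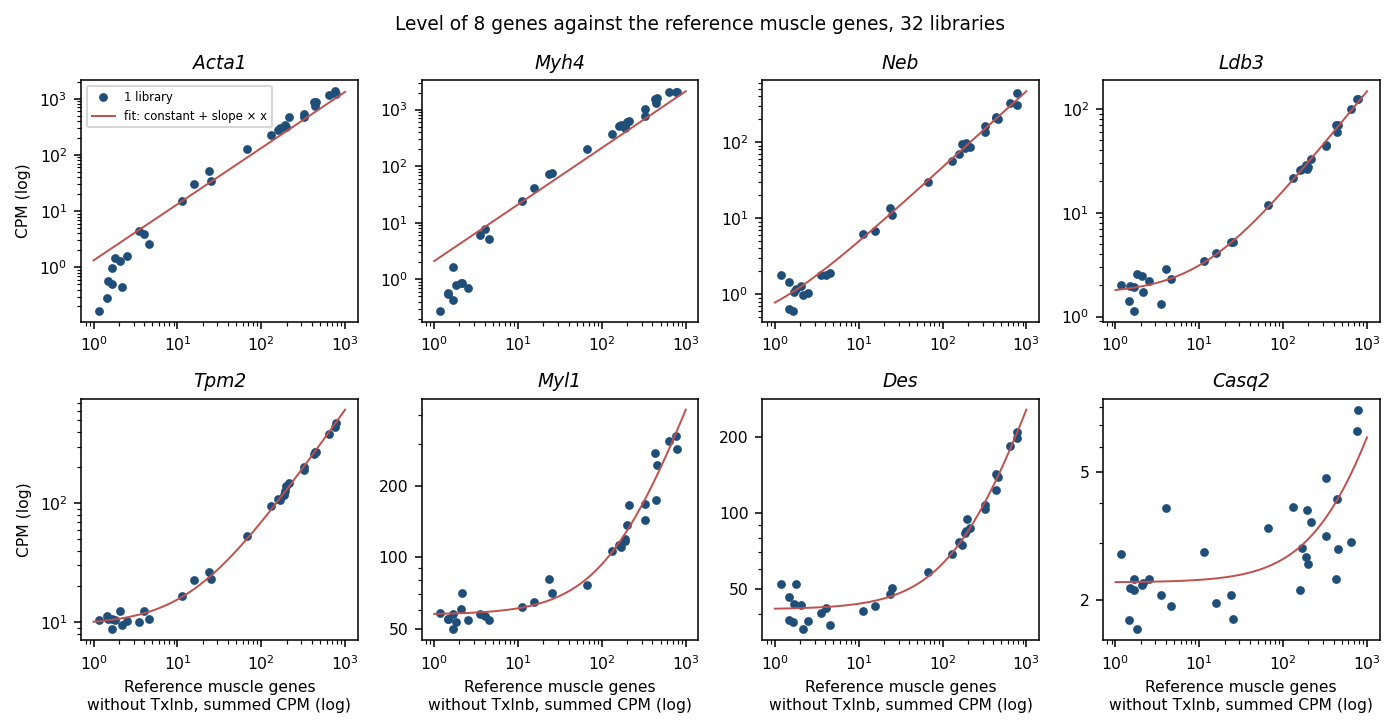
Each point is 1 of 32 libraries, with the CPM of the gene against the summed CPM of the reference muscle genes without Txlnb, both axes logarithmic, and the line is the fitted constant plus slope. Acta1 and Myh4 fall with the reference and lie below the line at the low end, Neb and Ldb3 bend at 1 to 2 CPM, and Tpm2, Myl1, Des and Casq2 level off at 9.47, 57.4, 41.7 and 2.27 CPM.

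The promoter stretches of Myl1, Des and Casq2 are shown because these genes kept a level in every library. That of Myl1 is chr1:66945057-66945306 on the minus strand, that of Des chr1:75360042-75360291 on the plus strand and that of Casq2 chr3:102086165-102086414 on the plus strand (RefSeq, GRCm38.p6). Capitals mark the MEF2 match of Casq2 at -69 to -60. In those of Myl1 and Des neither the MEF2 motif nor the CArG box was found. The GENCODE model of Myl1 starts at chr1:66945404 on the minus strand, so the stretch shown for Myl1 lies within that model.
Myl1: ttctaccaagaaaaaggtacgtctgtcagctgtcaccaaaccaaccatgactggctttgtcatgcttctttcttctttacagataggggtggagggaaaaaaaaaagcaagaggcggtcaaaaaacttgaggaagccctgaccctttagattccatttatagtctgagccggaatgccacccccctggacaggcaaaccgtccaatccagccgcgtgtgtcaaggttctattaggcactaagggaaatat
Des: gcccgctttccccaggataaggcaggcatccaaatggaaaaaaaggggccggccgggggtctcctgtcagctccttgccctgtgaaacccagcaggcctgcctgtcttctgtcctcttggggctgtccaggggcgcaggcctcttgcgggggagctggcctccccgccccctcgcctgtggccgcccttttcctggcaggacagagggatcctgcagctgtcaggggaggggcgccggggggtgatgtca
Casq2: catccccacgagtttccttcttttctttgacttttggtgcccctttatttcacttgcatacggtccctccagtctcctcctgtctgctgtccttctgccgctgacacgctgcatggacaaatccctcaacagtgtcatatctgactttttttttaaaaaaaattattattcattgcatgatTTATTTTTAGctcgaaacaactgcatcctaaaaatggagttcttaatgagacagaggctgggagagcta

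Of the 100-base stretches of Myl1, 95.55% occur in no other gene model, the rest also in the pseudogene Mylf-ps, and its exons overlap no other counted gene. Desmin, Tpm1 and Tpm2 are also known from smooth muscle, and Casq2 from heart. The smooth muscle genes Acta2 (22.6 to 64.3 CPM) and Myh11 (31.2 to 70.9 CPM) were read in all libraries and were not called on the index (edgeR adjusted p = 0.242 and 0.427). Of 10 smooth muscle genes, 2 rose with the index, Synpo2 at a slope of 0.31 ± 0.026 and Lmod1 at 0.13 ± 0.021. Of 8 cardiac genes, 2 passed the filter and 1 rose, Actc1, the cardiac actin, with 0 to 9.89 CPM and a slope of 0.69 ± 0.089. Nppa and Nppb, natriuretic peptides of the heart, had no count in any library, and Myh6, the main myosin heavy chain of the adult mouse heart, read at most 2.47 CPM. The part of smooth muscle in the levels of Des, Tpm1 and Tpm2 was not tested.

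Among the myogenic regulators reported here, Myf6, Myod1 and Mef2c rose with the index, Myf6 at a slope of 1.08 ± 0.049, Myod1 at 0.85 ± 0.075 and Mef2c at 0.16 ± 0.019. Mef2a and Mef2d were not called (edgeR adjusted p = 0.976 and 0.904). Outside the 36 genes and the reference list, the 5 genes with the smallest p on the index were Mypn at a slope of 1.03 ± 0.019, Hrc at 1.09 ± 0.021, Scn4b at 0.94 ± 0.020, Pygm at 0.79 ± 0.018 and Hfe2 at 1.21 ± 0.029 (SE, 32 libraries). Mypn encodes the Z-disc protein myopalladin, Hrc a calcium-binding protein of the sarcoplasmic reticulum, and Pygm muscle glycogen phosphorylase.

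Most slow-fibre genes varied between muscle-rich libraries more than most fast ones, a description with no test. It was read as the ratio of a gene's CPM to the summed reference CPM (without Txlnb) in the 15 libraries where that sum reached 100 CPM, a limit chosen after the values were seen. Over these libraries the ratio of Myh4 ran from 2.42 to 3.64, 1.5-fold, that of Acta1 from 1.48 to 2.20, 1.49-fold, and that of Tnnt3 from 0.689 to 0.880, 1.28-fold. The ratio of Myh7, the slow (type I) myosin heavy chain, ran from 0.0056 (16 counts) in ZT6 replicate 2 to 0.415 in ZT15 replicate 1, 74.1-fold. Slow troponin followed: Tnnt1 differed 13.7-fold, Tnnc1 18.2-fold, and Tnni1 ran from 0.00105 (3 counts) to 0.0537. Myl2, the slow regulatory light chain, ran from 0.00035 (1 count) to 0.0780. These folds rest in part on single libraries. Without ZT6 replicate 2 they were 19.5-fold for Myh7, 8.42-fold for Tnnt1, 11.2-fold for Tnnc1, 20.7-fold for Tnni1 and 11.1-fold for Myl2. Without ZT15 replicate 1, the highest library of all 5, they were 45.1-fold for Myh7 and 8.67-fold for Tnnt1. Myl3, the slow essential light chain, differed 7.38-fold, with 28.9% of its mean CPM in the constant of the negative binomial fit. No fold is read for Casq2, because 73.8% of its mean CPM was in the constant and its ratio changes with the reference sum alone. Over the 14 fast-fibre genes the median fold was 1.64. The 2 fast genes above 3-fold were Myh1 (14.5-fold, but 3.24-fold without ZT21 replicate 3) and Myh2 (3.62-fold).

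The same libraries led most slow genes. For each of Myh7, Myl2, Tnnt1, Tnni1 and Tnnc1 the 5 libraries with the highest ratio were ZT15 replicate 1, ZT15 replicate 2, ZT3 replicate 2, ZT21 replicate 1 and ZT0 replicate 4, which come from all 3 lanes. For all 5 genes the lowest ratio was that of ZT6 replicate 2. The 5 genes share these libraries, so they are not independent, and no test was made.

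The myosin heavy chains show the same on a scale that needs no reference. In the 23 libraries with at least 100 counts of the 4 adult forms, Myh4 held 67.2% to 90.6% of their counts per kilobase of exon, with a median of 83.1%. Myh1 held 1.86% to 26.3%, Myh2 1.59% to 6.16% and Myh7 0% to 8.10%. At ZT15 alone Myh7 held 8.10% in replicate 1 (95% Wilson interval on its counts 7.91% to 8.30%), 4.96% in replicate 2 (4.57% to 5.38%), 0.487% in replicate 3 (0.425% to 0.559%) and 0.309% in replicate 4 (0.196% to 0.489%). The intervals of the first pair lay above those of the second, but they cover counting error only and compare single mice. In ZT9 replicate 3 it had 0 of 155 counts, which allows a share of up to 1.94% of the counts. Myh1 was highest in ZT12 replicate 3 and lowest in ZT21 replicate 3. The other libraries of ZT12 had 5.17%, 9.57% and 15.3%, and those of ZT21 had 13.5%, 24.5% and 12.5%.

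**Figure D4:**
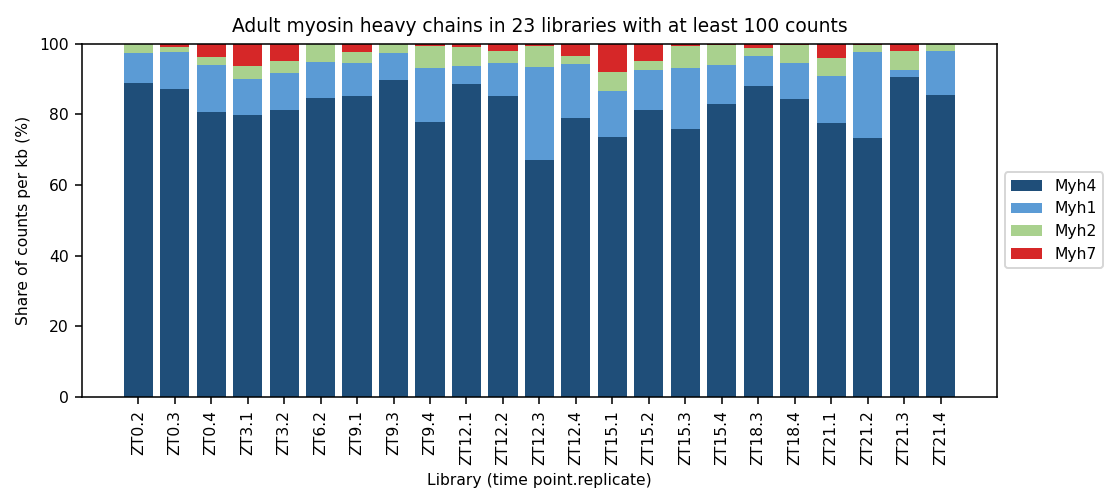
Bars give the share of each adult myosin heavy chain in the summed counts per kilobase of the 4 forms, in percent, for the 23 libraries with at least 100 such counts. Myh4 takes 67.2% or more in each, and the red share of Myh7 differs between mice of 1 time point, as at ZT15 (8.10%, 4.96%, 0.487% and 0.309%).

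The question of the study, oscillation over the day, had few answers among these genes. With JTK_CYCLE, a rank test of rhythm, 1 of the 36 genes passed P below 0.05, where 36.9% of all tested genes did: Tnnc1, the troponin C of slow and cardiac muscle (exact null distribution, P = 0.0161, Benjamini-Hochberg adjusted p = 0.0556). None passed after adjustment, where 27.5% of all genes did. A 24 h cosine fitted with edgeR called 0 of 36 (36.1% of all genes), with 0 at an unadjusted p below 0.05, and DESeq2 called 0 (38.1% of all genes). The test of any difference between the 8 time points called 0 of 36 (39.8% of all genes), with 1, Tnnc1, at an unadjusted p below 0.05 (edgeR adjusted p = 0.0805). DESeq2 called 1 of 36 (45.2% of all genes). With the index in the model Tnnc1 was not called between time points (edgeR adjusted p = 0.418). It read 0.390, 0.473, 0.505 and 0.836 CPM at ZT6 and 1.61, 1.72, 5.07 and 6.28 CPM at ZT21. These time points lie on lanes 2 and 4, and their muscle reads differ. The summed reference CPM without Txlnb was 1.17 to 169 CPM at ZT6 and 3.51 to 324 CPM at ZT21. At ZT3 Tnnc1 read 0.290, 0.360, 0.823 and 24.0 CPM, which spans its values at ZT6 and ZT21.

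The outcome rested in part on that last library. Without ZT3 replicate 2, the cosine called 6 of 36 and the time points called 6, in both cases Myl2, Tnni1, Myh7, Myl3, Tnnt1 and Tnnc1, all slow-fibre genes (edgeR adjusted p of 0.00645 to 0.0451 for the cosine). In those fits 35.0% and 37.0% of all 15669 genes tested were called, a larger share than among the 36. With the index in the model, none of these 6 genes was called between time points without ZT3 replicate 2 (edgeR adjusted p of 0.0577 for Myl2 to 0.541 for Tnni1). Tnnc1 was also called between time points without ZT9 replicate 1 and without ZT12 replicate 2. ZT3 replicate 2 had the second highest summed level of the 36 genes.

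With the muscle reads held equal, few of the 36 genes were called between time points. When the index entered the model beside time point, edgeR called 2 of the 36 genes between time points, Tcap (adjusted p = 0.00238) and Myl2 (adjusted p = 0.0371), where 40.1% of 15485 genes were called. At equal index Tcap was lower at ZT0 and ZT3 than the mean of the time points, by log2 differences of -0.70 ± 0.215 and -0.96 ± 0.283 (SE), and higher at ZT12 and ZT15, by 0.54 ± 0.182 and 0.60 ± 0.165. The ratio of Tcap to the summed reference CPM shows this in the single libraries with over 5 CPM of reference reads. It was 0.0829, 0.0869 and 0.0985 at ZT0, 0.0808 and 0.0963 at ZT3, and 0.148 in the 1 library of ZT6. It was 0.205 and 0.223 at ZT9, 0.159, 0.223 and 0.264 at ZT12, and 0.218, 0.219, 0.222 and 0.241 at ZT15. It was 0.165 and 0.201 at ZT18 and 0.110, 0.153 and 0.195 at ZT21. All 5 libraries of ZT0 and ZT3 lay below all other 15 libraries. That split was read from these same values, and the share of all genes that split so was not computed. The ratio of Acta1 in the same libraries spanned 1.34 to 2.22, and ZT0 held both the highest value and one of the lower ones (1.48). Myh2 was not called beside the index (edgeR adjusted p = 0.113), but its log2 differences had the same signs as those of Tcap. They were -0.95 ± 0.311 at ZT0, -0.53 ± 0.371 at ZT3, 0.31 ± 0.259 at ZT12 and 0.35 ± 0.229 at ZT15 (SE). On raw CPM Tcap was not called between time points (edgeR adjusted p = 0.6) or by JTK (exact null, P = 0.0998).

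A 24 h cosine beside the index, chosen after seeing the data, called Tcap as the only 1 of the 36 (edgeR adjusted p = 0.000141), where 36.1% of all genes tested were called. It was not called with lane added to that model (edgeR adjusted p = 0.337). The test of time points beside the index did not call Tcap within lane 2, 3 or 4 alone (edgeR adjusted p = 0.246, 0.922 and 0.377). Those smaller fits called 1991 of 14847, 110 of 14806 and 1131 of 14466 genes. With DESeq2 the test of time points beside the index did not call Tcap either (adjusted p = 0.132). DESeq2 called none of the 36 between time points beside the index, with 0 of them at an unadjusted p below 0.05, where it called 45.6% of all genes. The cosine with index and lane called none of the 36 either, with 2 at an unadjusted p below 0.05, where 17.7% of all genes were called. The low values of ZT0 and ZT3 were all on lane 2, so for Tcap lane and time of day cannot be told apart. The call of Myl2 beside the index was lost in 5 of the 32 fits with 1 library left out, those without ZT3 replicate 1, ZT3 replicate 2, ZT12 replicate 3 and ZT18 replicate 4 (edgeR adjusted p = 0.0516, 0.0577, 0.0526 and 0.0792) and without ZT6 replicate 2 (0.261). In ZT6 replicate 2, the 1 library of that time point with over 5 CPM of reference reads, Myl2 had 1 count. The call of Myl2 was also lost with DESeq2 (adjusted p = 0.237), with the index as log2 of the sum (edgeR adjusted p = 0.052), with the cosine in place of the time points (0.889) and within lanes 3 and 4 (0.701 and 0.0564).

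**Figure D5:**
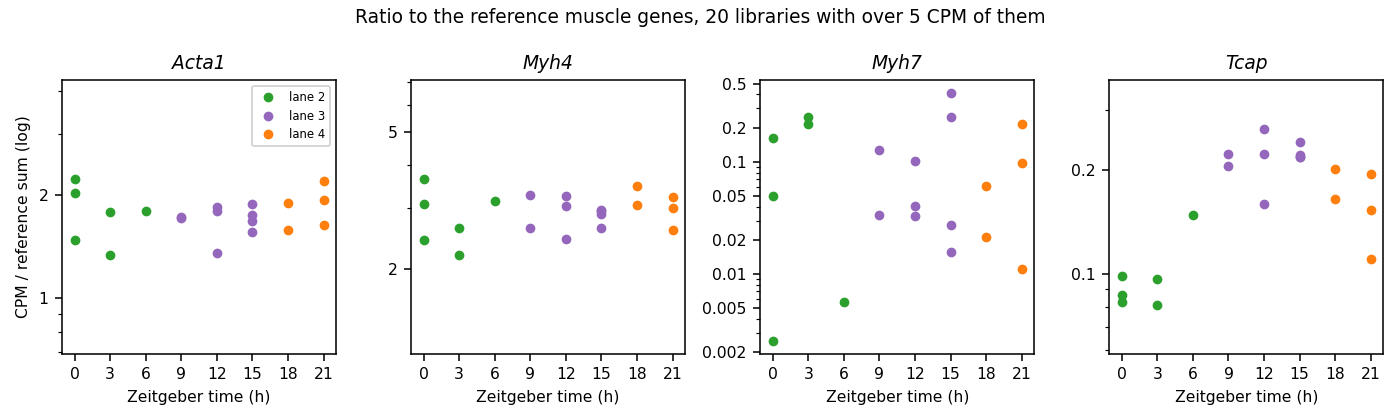
Each point is 1 of the 20 libraries with over 5 CPM of the reference genes: the ratio of a gene's CPM to the summed reference CPM (without Txlnb, log axis) against Zeitgeber time, coloured by sequencing lane. Acta1 and Myh4 stay within a narrow band, and Myh7 scatters from 0.00251 (1 count, ZT0 replicate 2) to 0.415 within and between time points. Tcap is below 0.1 at ZT0 and ZT3 and at 0.110 or more elsewhere.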

How the data were processed

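RNA from 32 iBAT samples was measured by stranded paired-end RNA sequencing. Per the labels and the study's methods, the authors aligned reads to mm10 with GSNAP and deposited raw counts per Ensembl gene made with HTSeq 0.6.1. The strand setting of the counting and the treatment of reads with several matches are not given in the sources used here. No column belonged to another series. Samples were grouped by the time point in their titles.

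Symbols came from a gene name table, and gene models from GENCODE on GRCm38. Counts were filtered with filterByExpr by time point and scaled by TMM in edgeR 4.0.16 (R 4.3.3), and tested with its quasi-likelihood test, Benjamini-Hochberg adjusted over all tested genes. DESeq2 1.42.0 was an alternative. JTK_CYCLE was rewritten in Python 3.11.15 for periods of 21 and 24 h, with the P threshold of 0.05 of the study. CPM are relative to effective library sizes, in which 1 count is 0.0526 to 0.0642 CPM. The reference muscle index is the mean log2 CPM (prior count 2) of Ampd1, Apobec2, Art1, Cacng1, Jsrp1, Klhl40, Klhl41, Lmod2, Lmod3, Mylk2, Myom2, Myoz2, Nrap, Pgam2, Smpx, Tmod4, Trdn, Trim54, Txlnb and Xirp2. It left these 20 genes out of the counts of genes called beside it. The constant of each gene was fitted by negative binomial maximum likelihood with a 95% profile interval. A fold against a library with fewer than 3 counts was not printed. The scripts were tested on simulated data.

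All 36 members are named. Other genes are those of the lists of reference, smooth muscle, cardiac, myogenic, brown adipocyte and blood genes, and the 5 genes with the smallest p and a positive slope on the index at a mean of at least 1 CPM. Some results on these and other lists are not reported here. The members and lists were chosen with earlier results of these data known. Each mouse gave 1 library, so p-values measure the spread between mice, and lane is part of that spread between time points. Replicate numbers were not used as pairs. Alternatives were other scalings, no filter, DESeq2, a replicate block, lanes, other forms of the index and leaving out each library.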

Additional observations from a re-analysis of the deposited data

Results flagged for a closer look

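In groups of 4 libraries, 56 groups were examined for a highest or lowest value that stood far from its neighbour relative to the range. The limit was Dixon's criterion at 0.829, and 13 groups exceeded it. The groups repeat the same libraries for several measures that rise with muscle reads. They are thus not independent, and no comparison with chance was made. At ZT3, replicate 2 stood above the other 3 libraries in the summed reference genes without Txlnb (764 CPM, next 11.2), the summed members (12519 CPM, next 351), Myl1 (325 CPM, next 61.9), Tpm1 (452 CPM, next 91.9), Des (198 CPM, next 43.3), Casq2 (6.70 CPM, next 2.82) and Tcap (61.8 CPM, next 1.08). At ZT6, replicate 2 stood above the others in the summed reference genes (169 CPM, next 1.67), the summed members (3075 CPM, next 214), Myl1 (111 CPM, next 58.5), Tpm1 (169 CPM, next 75.8) and Tcap (25.1 CPM, next 0.119). At ZT0, Casq2 read 4.78 CPM in replicate 4 and 2.32 CPM in the next library.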

How the results depend on the processing

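The relation of the members to the reference index called 36 of 36 under other scalings, no filter, DESeq2, the replicate block and both other forms of the index, and 33, 35 and 33 within lanes 2, 3 and 4, where 34, 36 and 36 were tested. Leaving out 1 library gave 35 to 36 calls, Casq2 being lost without ZT3 replicate 2 (edgeR adjusted p = 0.0593). Casq2 was also not called within lane 2, 3 or 4, and Myl3 (adjusted p = 0.357) and Tnnc1 (0.0673) not within lane 4. Between time points DESeq2 called 1 member, and leaving out 1 library gave 0 to 6 for the time points, 0 to 6 for the cosine and 1 to 3 for JTK. After adjustment JTK called 0 members with all libraries and 1 in 6 of the 32 fits, those without ZT0 replicate 4, ZT3 replicate 2, ZT9 replicate 1, ZT12 replicate 2, ZT18 replicate 2 or ZT21 replicate 1. Lane as a factor left the cosine at 0 members and lowered its calls over all genes from 5602 to 2661. Beside the index, time points called 2 members, 1 within lane 2 (Myh7), 0 within lane 3, 1 within lane 4 (Myh2), 1 with the index as log2 of the sum, 0 with DESeq2, and 1 to 3 with 1 library left out. Within lanes 2, 3 and 4 these fits called 1991 of 14847, 110 of 14806 and 1131 of 14466 genes, against 6209 of 15485 with all libraries. A cosine beside the index called 1, and with lane 0. The interval of the constant lay above 0 for 7 members, for 14 without Txlnb and for 7 to 8 with 1 library left out. Least squares on CPM gave Myl3 a constant of -0.19 CPM and Tnnc1 one of -0.81 CPM, both reversed in sign. The count read in every library was 9 at 0.5 CPM and 4 at 2 CPM. The cause of these changes was not tested. No label ties a replicate number to a shared source, and the numbers did not pair libraries: deviations of same-numbered libraries had a mean correlation of -0.0333, and 4 of 32 libraries correlated best with their own number. The replicate block gave 0 calls for the cosine, 0 for the time points, 36 for the index and 2 beside the index. A count of 1, worth 0.0526 to 0.0642 CPM, limits what the libraries with few muscle reads can show of the 22 genes with no constant.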

Other observations

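None of 12 brown adipocyte genes and 5 blood genes was called on the reference index (edgeR). Of the haemoglobin genes, Hba-a1 ran from 59.3 to 251 CPM, with ZT9 replicate 3 highest.

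Txlnb, 1 of the reference genes, read 5.39 to 77.8 CPM with a slope of 0.30 ± 0.037 on the index of which it is a part, against 0.70 or more for the other 19 reference genes. The myogenic factors Myf5, Myog, Pax3 and Pax7 did not pass the filter on low counts and read at most 2.68 CPM.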
